A study of Homo sapiens with 6 samples.

Results

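The expression of 9 eosinophil genes, 7 coding for granule or crystal proteins and a lipid enzyme and 2 for surface receptors, was followed in NB4, a leukemia cell line established from acute promyelocytic leukemia. The granule and crystal proteins are PRG2 (major basic protein), PRG3 (its homolog), EPX (eosinophil peroxidase), RNASE2 and RNASE3 (ribonucleases of the eosinophil granule) and CLC (galectin-10, the Charcot-Leyden crystal protein). ALOX15 codes for a lipoxygenase, SIGLEC8 for an inhibitory lectin receptor and IL5RA for the interleukin-5 receptor alpha chain. The 9 genes were taken from 52992 genes with matched transcripts and were chosen by their counts and TPM in these libraries, compared between each ARID1A guide and LacZ. Of the 9, 6 were among the 18514 genes that passed a filter on low counts (PRG2, EPX, RNASE2, RNASE3, SIGLEC8 and ALOX15), and PRG3, CLC and IL5RA did not pass.

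RNA was sequenced from 6 libraries in 3 groups of 2 replicates. All cells carried Cas9 and a guide RNA (sgRNA) vector induced by doxycycline, and all received 1 µg/ml doxycycline for 7 days. The LacZ group expressed a control sgRNA against a bacterial gene, and the sg1 and sg5 groups each expressed an sgRNA against ARID1A, a DNA-binding component of the SWI/SNF remodeler. The genotype label calls the 4 sg1 and sg5 libraries ARID1A-deficient. By the study's methods these were cells sorted for both vectors, not single clones, from 1 cell line, and doxycycline was withdrawn before RNA was prepared. The labels do not say whether replicates were separate cultures, so p-values measure the spread between libraries, which may be technical.

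Eosinophils arise in bone marrow from myeloid precursors under the transcription factors GATA1, C/EBP family members and PU.1, and interleukin-5 promotes their maturation. Granule proteins are made early, at the promyelocyte stage, and stored around a crystalline core of major basic protein. The surface receptor SIGLEC8 appears late in the lineage.

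The libraries held 46131178 to 54843745 estimated counts. ARID1A itself was at 155 and 191 CPM (counts scaled to library size) for LacZ against 211 and 191 for sg1 and 124 and 145 for sg5. A gene-level count does not read the edited bases, so these values do not check the genotype. The study separately reported, by immunoblot, knockout of the ARID1A protein in NB4 cells after 7 days of doxycycline. The cell type was checked on promyelocyte and primary granule genes. MPO (myeloperoxidase) averaged 6753 TPM (a level scaled by transcript length), and 7 of 8 listed genes passed the filter. The one that did not, ELANE (neutrophil elastase), was near 0, with 9 and 8 counts for LacZ and 1 to 5 in ARID1A-deficient libraries. On the first principal component, which held 34.4% of the variance, sg1 replicate 1 and sg5 replicate 2 stood apart at 34.3 and 46.8, against -30.3 to -11.3 in the other 4 libraries. Values for EPX, SIGLEC8, RNASE2 and RNASE3 are also given without those libraries.

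Sequence decides how far reads of these genes can be told apart, and 2 places matter here. The first is PRG2 (ENSG00000186652), on chr11:57386794-57390657 (minus strand, GRCh38), whose exons are also used by the read-through gene AP000781.2, which runs from SLC43A3 (a membrane transporter gene upstream) into PRG2. The splice junctions into the exon where the main transcripts of both genes meet are shown, with the 15 bases of the preceding exon in capitals and the 15 bases of the common exon, at chr11:57389942-57389956, in lower case. The preceding bases are at chr11:57390596-57390610 in PRG2 and at chr11:57399496-57399510 in AP000781.2.
PRG2: AAGGTCTCTGGGTGGgataaagccaagatg
AP000781.2: CATGCAACTTACAGGgataaagccaagatg

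The second place is the RNASE2 and RNASE3 pair on chromosome 14, paralogs with a coding identity of 84.7%. RNASE2 is at chr14:20955452-20956436 and RNASE3 at chr14:20891399-20892348, both on the plus strand of GRCh38. The first 90 coding bases, at chr14:20955772-20955861 and chr14:20891687-20891776, are shown with the 5 bases that differ in capitals, because such bases tell reads of the paralogs apart.
RNASE2: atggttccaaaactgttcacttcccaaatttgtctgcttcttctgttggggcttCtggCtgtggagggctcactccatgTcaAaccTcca
RNASE3: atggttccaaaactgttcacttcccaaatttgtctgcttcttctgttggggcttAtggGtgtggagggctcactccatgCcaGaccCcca

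Their promoters, which are also alike, are RefSeq sequences (GRCh38.p14, 250 bases before to 50 after the start), at chr14:20955237-20955536 and chr14:20891135-20891434 on the plus strand, with a C/EBP word in capitals.
RNASE2 promoter: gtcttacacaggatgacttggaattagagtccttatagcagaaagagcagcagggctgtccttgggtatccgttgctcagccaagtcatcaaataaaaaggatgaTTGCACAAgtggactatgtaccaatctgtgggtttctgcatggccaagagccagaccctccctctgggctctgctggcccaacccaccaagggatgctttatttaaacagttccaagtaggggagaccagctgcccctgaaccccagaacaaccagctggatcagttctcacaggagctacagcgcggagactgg
RNASE3 promoter: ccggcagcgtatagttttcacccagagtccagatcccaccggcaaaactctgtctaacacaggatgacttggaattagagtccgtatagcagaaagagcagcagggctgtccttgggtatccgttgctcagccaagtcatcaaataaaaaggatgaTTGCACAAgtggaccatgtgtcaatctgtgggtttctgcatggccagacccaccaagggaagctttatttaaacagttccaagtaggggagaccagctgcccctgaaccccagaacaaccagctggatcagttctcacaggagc

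The 2 promoters aligned over 283 positions with 85.5% identity. Both held the word TTGCACAA, 145 bases before the start in RNASE2 and 94 bases before it in RNASE3. The word searched for, TTGCNNAA on either strand, is in 10.5% of 35116 promoters of this length. Promoters were found for 6 of the 9 genes. In the other 4, GATA words (AGATAA, also with a T as first or a G as last letter, on either strand) occurred at 1 position in PRG3 and at 2 positions each in CLC and IL5RA, beside a share of 25% of all promoters. PU.1 words (GAGGAA) occurred at 2 positions each in CLC and SIGLEC8 and are in 27.9% of promoters, and 1 RUNX word (TGTGGT) was in CLC, against 13.1% of promoters. These matches describe letters only.

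Within LacZ cells the 9 genes spanned a wide range of expression. RNASE2 was highest at 487 and 411 TPM in the 2 replicates and ranked 239 among the 18514 genes by mean TPM. PRG2 followed at 65.3 and 73.5 TPM, and RNASE3 was at 29.1 and 25.8. EPX was at 3.16 and 2.96 TPM, SIGLEC8 at 0.733 and 0.694, and ALOX15 at 0.201 and 0.461. Among these 6 the replicate values of neighboring genes did not overlap. In ARID1A-deficient cells RNASE3 stood above PRG2 in each of the 4 libraries, with a ratio of PRG2 to RNASE3 TPM of 0.757 to 0.985 against 2.25 and 2.84 in LacZ. These PRG2 values leave out the read-through gene AP000781.2, which was at 16.8 to 23.1 TPM in the same 4 libraries. The order of PRG2 and RNASE3 therefore depends on how reads were divided between PRG2 and the read-through. RNASE2 provided 79.9% and 83.1% of the summed TPM of the 9 genes in LacZ and 92.2% to 93.8% in ARID1A-deficient cells. Without RNASE2 the sum was 99.0 and 103.7 TPM in LacZ and 46.6 to 60.6 TPM in ARID1A-deficient cells.

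**Figure D1:**
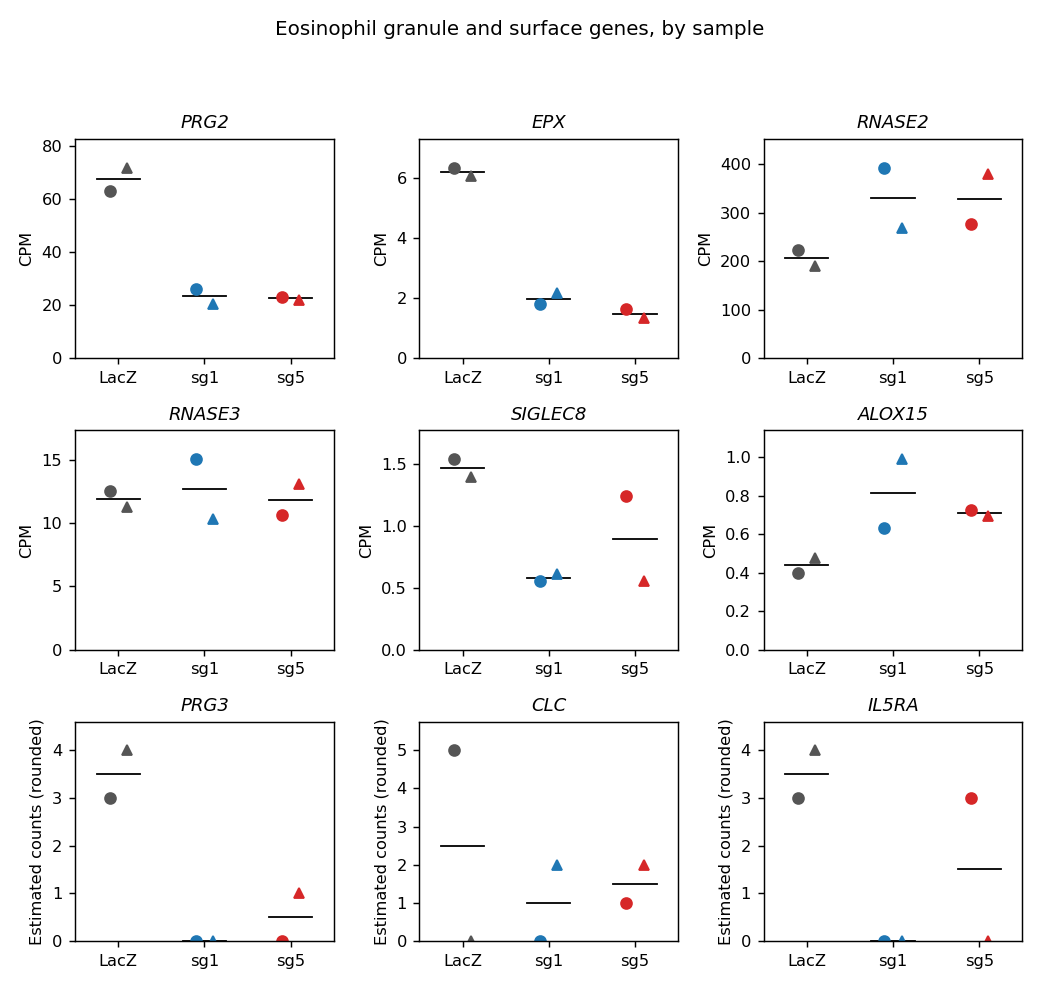
Expression of the 9 genes in each library. The vertical axis is CPM for the 6 genes that passed the count filter and rounded estimated counts for PRG3, CLC and IL5RA; circles are replicate 1, triangles replicate 2 and lines group means. PRG2 and EPX are lower in all 4 sg1 and sg5 libraries than in both LacZ libraries, RNASE2 and ALOX15 are higher, and RNASE3 overlaps.

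PRG2 and EPX, which encode 2 of the defining granule proteins, were lower in all 4 ARID1A-deficient libraries than in both LacZ libraries. PRG2 had 3312 and 3620 estimated counts for LacZ, against 1321 and 913 for sg1 and 1089 and 1108 for sg5. As CPM these were 62.9 and 71.8, 26.1 and 20.5, and 23.2 and 21.9. The highest ARID1A-deficient library was below both LacZ libraries, and the groups did not overlap. The log2 fold change in sg1 was -1.53 (SE 0.15), and in sg5 -1.58 (SE 0.15), or 0.347 and 0.335 of the LacZ level. The guides differed by 0.05 (95% confidence interval -0.29 to 0.39). By mean TPM, PRG2 ranked 2151 among the tested genes in LacZ and 5398 in ARID1A-deficient cells.

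EPX (ENSG00000121053, chr17:58192737-58205174, plus strand) had 334 and 306 counts for LacZ against 91 and 96 for sg1 and 77 and 67 for sg5. The groups were again separate, at 6.34 and 6.07 CPM in LacZ against 1.33 to 2.16 CPM in ARID1A-deficient cells. Its log2 fold change in sg1 was -1.65 (SE 0.24), and in sg5 -2.06 (SE 0.25), the former not past the threshold, a false discovery rate of 0.1 over all genes. The guides differed by 0.42 (95% confidence interval -0.15 to 0.98), an interval that includes both 0 and differences of up to 0.98. Without the 2 libraries apart on the first component the value was -1.52 in sg1 and -1.92 in sg5. EPX shares 25 of its 2678 words of 31 bases with MPO, and 99.1% are its own. The nearest gene, MKS1, lies 263 bases away and had a log2 fold change of -0.18 (SE 0.13) over both guides.

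SIGLEC8 (ENSG00000105366, chr19:51450847-51458456, minus strand) had 81 and 70 counts for LacZ against 28 and 27 for sg1 and 58 and 28 for sg5. All 4 ARID1A-deficient libraries were below both LacZ libraries, but sg5 replicate 1 was closer to LacZ than to the other 3. The log2 fold change in sg1 was -1.33 (SE 0.41), and in sg5 -0.71 (SE 0.39), neither past the threshold. Without sg5 replicate 1 the value for sg5 was -1.38, and without sg5 replicate 2 it was -0.25. Without the 2 libraries apart on the first component it was -1.26 in sg1 and -0.24 in sg5. Its neighbor SIGLEC10, another lectin receptor, had a log2 fold change of 0.01 (SE 0.11) over both guides.

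RNASE2 (ENSG00000169385), in contrast, lay above LacZ in all 4 ARID1A-deficient libraries. It had 11767 and 9641 counts for LacZ against 19897 and 11954 for sg1 and 13019 and 19237 for sg5. As CPM these were 223 and 191, 393 and 269, and 277 and 380, so that all 4 were above both LacZ libraries. The 2 highest values belonged to the libraries that stood apart on the first component, sg1 replicate 1 and sg5 replicate 2. The log2 fold change in sg1 was 0.68 (SE 0.21), and in sg5 0.67 (SE 0.21), not past the threshold. Without these 2 libraries it was 0.38 in sg1 and 0.42 in sg5, in a fit with 1 residual degree of freedom, which came from LacZ. The guides differed by 0.01 (95% confidence interval -0.47 to 0.49).

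RNASE3 (ENSG00000169397) had no separation between the groups. Its counts were 660 and 568 for LacZ against 761 and 457 for sg1 and 499 and 660 for sg5. The log2 fold change in sg1 was 0.09 (SE 0.21), and in sg5 -0.01 (SE 0.21), and both signs depended on the libraries used. Without the 2 libraries apart on the first component it was -0.21 in sg1.

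Because the paralogs share sequence and both had their 2 highest CPM values in the same libraries, their ratio was examined within each library. RNASE2 TPM over RNASE3 TPM was 16.7 and 15.9 for LacZ against 24.6 and 24.6 for sg1 and 24.5 and 27.4 for sg5. The ratio did not overlap between LacZ (16.3 ± 0.579, SD, n = 2) and ARID1A-deficient cells (25.3 ± 1.42, SD, n = 4), and it was 1.55-fold higher in the latter. The replicates of sg1 gave the same ratio to 3 digits although their RNASE2 levels were 393 and 269 CPM. The ratio was chosen after its values had been seen, and no test was attached. Of the 31-base words of each transcript, 84.8% in RNASE2 and 84.5% in RNASE3 occur in no other gene, and 89 are common to both.

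**Figure D2:**
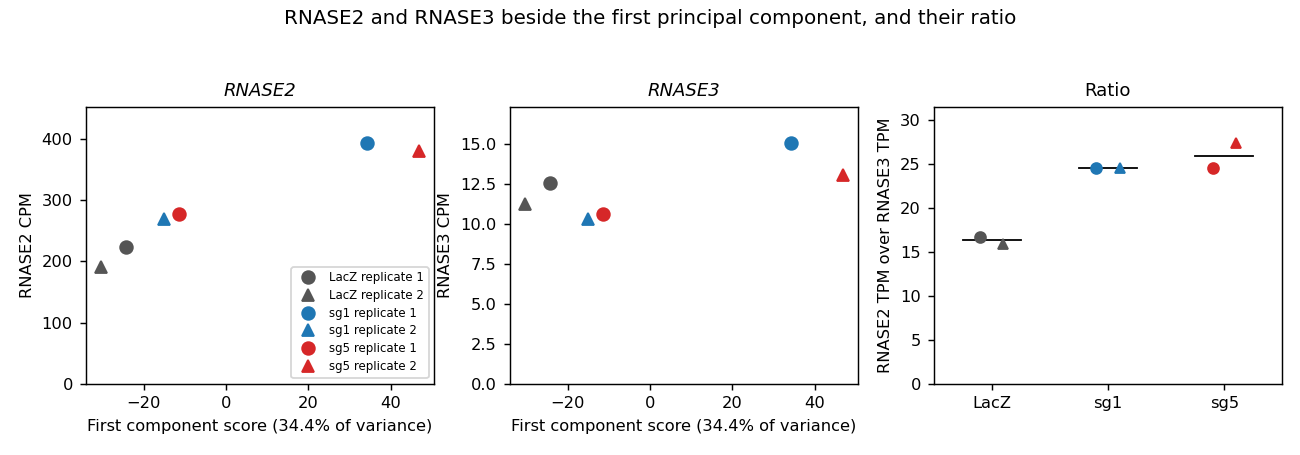
RNASE2 and RNASE3 CPM of each library against its score on the first principal component, and the ratio of RNASE2 to RNASE3 TPM by group with group means as lines. The libraries at 34.3 and 46.8 on the first component hold the 2 highest RNASE2 values, and the ratio is 24.5 to 27.4 in the 4 sg1 and sg5 libraries against 15.9 and 16.7 in LacZ.

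ALOX15 (ENSG00000161905, chr17:4630902-4642294, minus strand) was measured at few counts, 21 and 24 for LacZ against 32 and 44 for sg1 and 34 and 35 for sg5. All ARID1A-deficient libraries were above both LacZ libraries in CPM, at 0.633 to 0.990 against 0.399 and 0.476. The log2 fold change in sg1 was 0.88 (SE 0.38), and in sg5 0.69 (SE 0.38), neither past the threshold. In TPM the groups overlapped, since counts were divided among transcripts of different length.

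PRG3, CLC and IL5RA were at or near 0. PRG3 (ENSG00000156575, chr11:57376769-57381150, minus strand) had 3 and 4 counts for LacZ against 0 and 0 for sg1 and 0 and 1 for sg5. CLC (ENSG00000105205, chr19:39731250-39738028, minus strand) had 5 and 0, 0 and 2, and 1 and 2. IL5RA (ENSG00000091181, chr3:3066326-3126613, minus strand) had 3 and 4, 0 and 0, and 3 and 0. A count of 0 allows up to 3 counts, or 0.0570 to 0.0675 CPM in these libraries, and this limit covers counting error only. A difference between groups was not detectable for these 3 genes at this depth, and no fold change was calculated.

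Of the 6 genes that passed the filter, 1 was called lower in sg1 (PRG2) and 2 in sg5 (PRG2 and EPX) by edgeR at a false discovery rate of 0.1, beside 0.027% and 0.0648% of all tested genes called lower and 0.0378% and 0.0972% called in either direction. Over both guides together PRG2 and EPX were called lower, with log2 fold changes of -1.55 (SE 0.12) and -1.86 (SE 0.20), beside 0.124% of all genes called lower and 0.167% in either direction. The genes were selected with these contrasts in view, so these counts are a description. Without LacZ replicate 1 the counts for sg1, sg5 and both guides became 0, 1 and 1, without LacZ replicate 2 they became 0, 0 and 1, and without sg5 replicate 2 only PRG2 was called in sg5. Without either sg5 replicate EPX was called in sg1 as well. In sg1 against sg5, which is also given as a description, 0 of the 6 were called by edgeR or DESeq2 and 0 had an unadjusted p under 0.05. Of all genes, 0.0054% were called by edgeR and 1.38% had such a p, so 0 of 6 is near the share of all genes. The largest difference between guides was that of SIGLEC8, -0.62 (95% confidence interval -1.57 to 0.33), so that differences of over 1 on the log2 scale are within its interval. PRG2, EPX and SIGLEC8 were among the 10.4% of tested genes with all ARID1A-deficient libraries below both LacZ libraries, and RNASE2 and ALOX15 among the 9.72% with all above.

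**Figure D3:**
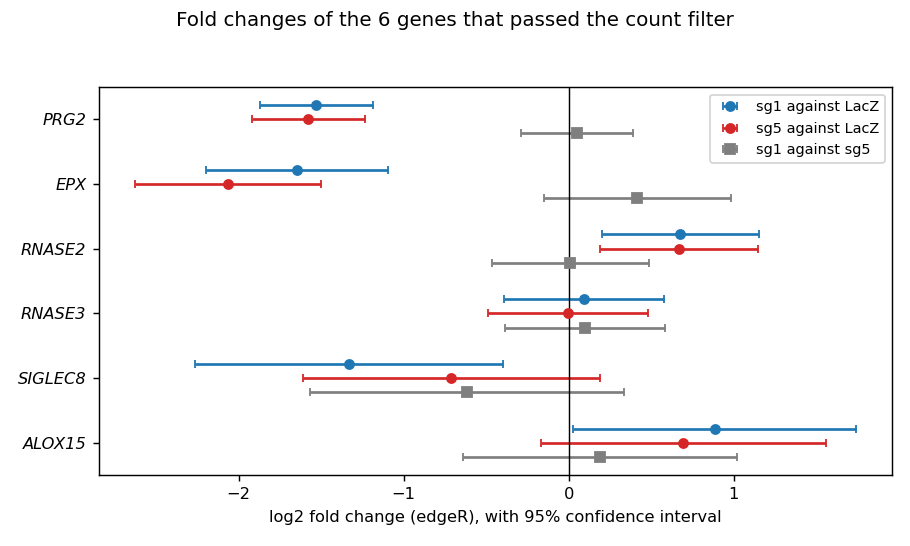
Log2 fold changes of the 6 genes that passed the count filter, from the edgeR fit over 6 libraries, with 95% confidence intervals as bars. PRG2 and EPX lie between -2.06 and -1.53 against LacZ in both guides, RNASE2 at 0.68 and 0.67, and every interval of sg1 against sg5 (gray squares) includes 0.

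PRG2 counts had to be read with the rest of the locus, since no PRG2 transcript is free of bases used by the read-through gene. Of the 1394 words of 31 bases in the main PRG2 transcript, which carried 79.0% to 87.7% of PRG2 counts, 631 (45.3%) occur only in PRG2 and 763 are shared with AP000781.2. The main read-through transcript has 13 exons and 1639 bases, 791 of them in exons of PRG2 and 746 in exons of SLC43A3. Only 128 of its 1609 words (7.96%) are its own. PRG2 and SLC43A3 do not overlap and lie 16297 bases apart.

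**Figure D4:**
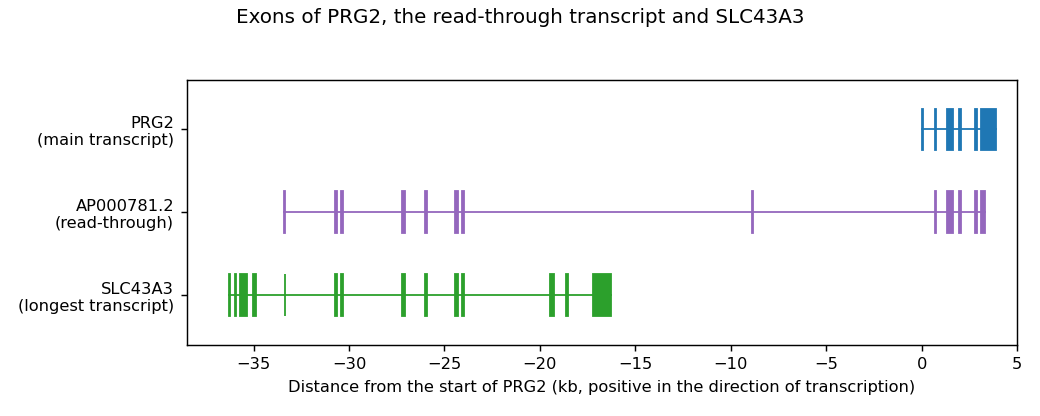
Exons (boxes) of the main PRG2 transcript, the main read-through transcript of AP000781.2 and the longest SLC43A3 transcript, by distance in kb from the start of PRG2 along the direction of transcription. The last 5 exons of the read-through lie at PRG2 exons, and the last PRG2 exon extends beyond it.

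The read-through gene also had lower counts. AP000781.2 (chr11:57387365-57424059, minus strand) had 2586 and 2359 counts for LacZ against 1193 and 1095 for sg1 and 744 and 1187 for sg5, with no overlap between the groups. In sg1 the log2 fold change of the read-through was -0.99 (SE 0.18, edgeR adjusted p = 0.265), not past the threshold. In sg5 it was -1.28 (SE 0.18, edgeR adjusted p = 0.0773) and over both guides -1.14 (SE 0.15, edgeR adjusted p = 0.0511), both past the threshold. SLC43A3 had 20100 and 19620 counts for LacZ against 19040 and 15205 for sg1 and 16592 and 19692 for sg5, and its log2 fold change was -0.10 (SE 0.12) and -0.05 (SE 0.12). Thus the part of the read-through shared with PRG2 and the part shared with SLC43A3 belong to genes with log2 fold changes of -1.53 and -0.10 in sg1, and how its reads divide between them was not tested.

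Adding the read-through to PRG2 kept most of the difference. The sum was 5898 and 5979 counts for LacZ against 2514 and 2008 for sg1 and 1832 and 2294 for sg5. Its log2 fold change in sg1 was -1.28 (SE 0.12), and in sg5 -1.45 (SE 0.12). PRG2 made up 56.2% and 60.5% of this sum in LacZ and 45.5% to 59.4% in ARID1A-deficient cells. When the whole locus was summed, SLC43A3 held most of the counts and the log2 fold change was -0.30 in sg1 and -0.28 in sg5, neither past the threshold.

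**Figure D5:**
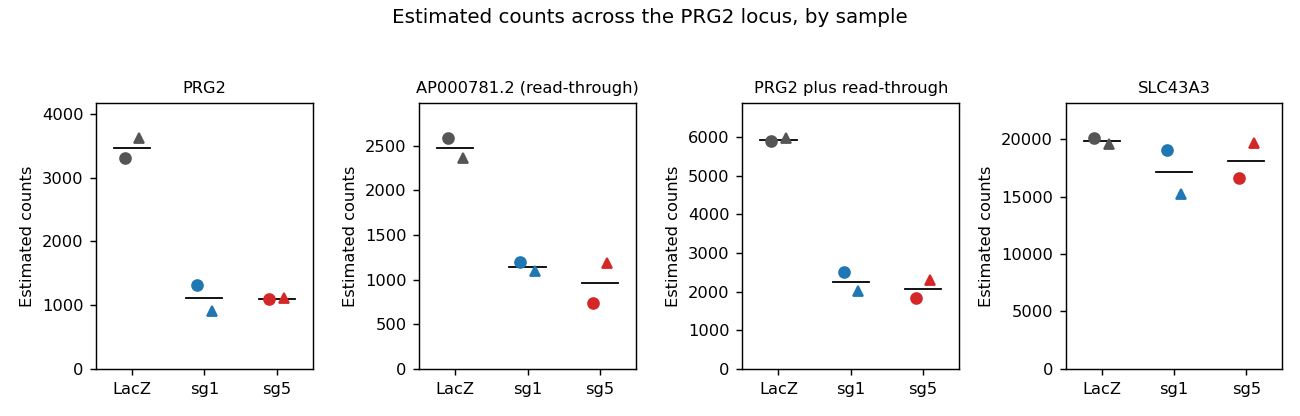
Estimated counts by library for PRG2, the read-through gene AP000781.2, their sum and SLC43A3, with group means as lines (circles, replicate 1; triangles, replicate 2). PRG2, the read-through and their sum are lower in all 4 sg1 and sg5 libraries than in LacZ; the sum is 1832 to 2514 against 5898 and 5979.

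Genes around the members were described from 15 lists, chosen with earlier results known, and 2 of their 108 tested genes were called in each guide, beside 0.0378% and 0.0972% of all genes. Both were lower: HDC, which makes histamine, and ITGA2B, the platelet integrin alpha-IIb, with log2 fold changes over both guides of -1.26 (SE 0.13) and -2.10 (SE 0.18). Among 12 other eosinophil genes 10 were tested and 0 were called, and their median log2 fold change was -0.02 in sg1 and -0.14 in sg5 (0.002 and -0.010 over all genes). Over both guides 6 of the 10 were lower and 4 higher. The most abundant of them, LGALS12 (a galectin) and OLIG2, had -0.67 (SE 0.13) and -0.01 (SE 0.13) over both guides. PTGDR2, IL1RL1 and HRH4, named after their values had been seen, had -1.25 (SE 0.28), -1.25 (SE 0.54) and -0.76 (SE 0.40). IL1RL1 and HRH4 had at most 18 and 36 counts. These genes and LGALS12 were among the 10.4% of tested genes with all ARID1A-deficient libraries below both LacZ libraries. Among 16 transcription factors of the eosinophil branch 0 were called, with medians of -0.07 and -0.15. In each guide 12 of the 16 were lower and 4 higher. SPI1, which encodes PU.1, and MYB had -0.03 (SE 0.11) and 0.01 (SE 0.10) over both guides. GATA1, named after its values had been seen, had 0.448 to 1.10 CPM in ARID1A-deficient cells against 1.92 and 1.59 in LacZ. Its change of -1.03 (SE 0.32) did not pass the threshold. GATA2, CEBPB and ZFPM1, named in the same way, had -0.47 (SE 0.14), -0.80 (SE 0.34) and -0.52 (SE 0.23) over both guides, also without a call. In the interleukin-5 receptor pathway 13 of 14 genes were tested, 0 were called, and the medians were 0.07 and 0.004.

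Of the genes next to RNASE2, IL5RA and ALOX15, METTL17, TRNT1 and PELP1 had log2 fold changes over both guides of 0.03 (SE 0.09), -0.15 (SE 0.12) and 0.04 (SE 0.12), and none was called. The other neighbors, P2RX3, OR4D2, RNASE1, LGALS14, LEUTX, CEACAM18, CNTN4, SMTNL2 and the overlapping CNTN4-AS1 and RF00416, did not pass the filter, and AC005962.1, which overlaps EPX, was not analysed here.

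Gene families of the members were read in the same way. No gene was called among the other RNase A family genes with their inhibitor RNH1 (5 of 12 tested), heme peroxidases (2 of 5), galectins (7 of 11), Siglecs (11 of 14), lipoxygenase and leukotriene genes (10 of 13) or granule biogenesis and proteoglycan genes (13 of 13). Over both guides their median log2 fold changes were 0.08, -0.11, 0.12, -0.17, -0.28 and 0.02.

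Markers of other cell types moved beside the members. All 7 tested basophil and mast cell genes of 14 listed were lower, 1 of them called (HDC), with medians of -0.87 and -0.86. Their summed level was 38.2 and 39.0 CPM in LacZ and 19.99 to 23.0 in ARID1A-deficient cells, and 5 of the 14, FCER1A among them, had at most 3 counts in every library. The 7 tested primary granule genes had lower values without a call, with medians of -0.27 and -0.36. The summed level of 6 monocyte genes was 174.5 and 190.6 CPM in LacZ and 226.7 to 428.0 in ARID1A-deficient cells, led by LYZ, at a log2 fold change of 1.06 (SE 0.26) that did not pass the threshold. Of the 5 tested monocyte genes, 2 were higher and 3 lower in each guide, with medians of -0.16 and -0.30, so the sum does not describe most of the list. The 6 megakaryocyte genes summed to 13.9 and 18.8 CPM in LacZ and 4.69 to 6.09 in ARID1A-deficient cells, most of it ITGA2B, and PF4 and GP9 had at most 3 counts in every library. Only 2 of the 6 were tested, and 2 were lower in sg1, but 1 was lower and 1 higher in sg5 and over both guides. Of 7 erythroid genes 0 passed the filter, and of 6 B and T cell genes 3 were tested and 0 called. The latter summed to 10.6 and 12.7 CPM in LacZ and 16.3 to 18.7 in ARID1A-deficient cells, MS4A1 and CD3E had at most 3 counts in every library, and CD79A and CD3D, the most abundant, had log2 fold changes of 0.87 (SE 0.18) and 0.38 (SE 0.17) over both guides. The part of these markers in the members' values was not tested, and in these bulk libraries fewer cells of a type and less RNA per cell cannot be told apart.

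The genes most like the members were sought among 13129 genes averaging at least 50 counts, by Pearson correlation of log2 CPM over the same 6 libraries. For the mean of the 6 tested members these were INPP4B (r = 0.991), ITGA2B (0.990), PLOD3 (0.989), ASPHD2 (0.988) and BMP1 (0.986), and 203 genes had r over 0.9. The mean joins unlike patterns. PRG2 and EPX correlated at 0.96, RNASE2 at -0.78 and -0.86 with them, ALOX15 at -0.90 and -0.77, and RNASE3 at 0.02 and -0.14. SIGLEC8 correlated with PRG2 and EPX at 0.77 and 0.76. For PRG2 they were AC008771.1, KCNK5 and DLX1 (0.994, 0.990 and 0.989), and for EPX CARMN, MISP3 and SH2B2 (0.996, 0.995 and 0.993). For RNASE2, added after its values were seen, SLC5A3 (0.999), S1PR3 and MRPS36 were closest and 831 genes had r over 0.9. With 6 libraries in 3 groups and a division on the first component, such values describe likeness only and no p was attached.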

How the data were processed

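RNA-sequencing of NB4 cells gave 6 libraries. The authors quantified reads per transcript, and the deposited tables hold kallisto's estimated counts, which need not be whole, TPM and effective length. The submitters' processing notes name kallisto, DESeq2 and hg19 without versions, and the transcript set is not given in the sources used here. Each table held 196354 transcripts, of which 181857 (92.6%) matched GENCODE 29 (GRCh38) by identifier. They carried 95.4% to 95.5% of counts, and coordinates come from that match. Counts were summed to genes, rounded, and tested with edgeR 4.0.16 (R 4.3.3): TMM normalization, a filterByExpr minimum of 10 counts, a robust quasi-likelihood F-test, 6 libraries in 1 model by group, and Benjamini-Hochberg adjustment over 18514 genes at 0.1. CPM uses TMM-scaled libraries. Standard errors came from the F statistic. DESeq2 1.42.0 and limma 3.58.1 were alternatives. Words of 31 bases were counted in GENCODE transcripts, and this is kallisto's default length, the authors' setting being unknown. On simulated counts of 18514 genes, changes in sg1 against LacZ were planted in 200 genes averaging at least 50 counts. Of log2 changes of 1, 69.9% were recovered, and of 2, 97.5%, and 16.6% of calls were false. SIGLEC8 and ALOX15 averaged fewer counts, so this recovery does not cover them.

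The 9 genes and the context lists were chosen with earlier results of these data known. Beyond the rule that follows, ELANE, PTGDR2, IL1RL1, HRH4, GATA1, GATA2, CEBPB and ZFPM1 were named after their values had been seen. All 9 genes were named, with the context genes called in any LacZ contrast or, in a list without one, up to 2 of the highest mean TPM, the neighbors of each member and the genes most like PRG2, EPX and the members' mean. Deviations of same-numbered replicates from their group means correlated at 0.07, 0.01 and -0.21 over genes, so the numbers were not taken to pair the libraries.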

Additional observations from a re-analysis of the deposited data

Results flagged for a closer look

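SIGLEC8 in sg5 replicate 1 (1.24 CPM) lay apart from the other 3 ARID1A-deficient libraries (0.554 to 0.608 CPM). On the log2 CPM scale with a prior count of 2 the gap was 0.886 of their range, above the 95% critical value of Dixon's test for 4 samples. In all, 6 such groups were examined, 1 for each tested gene, and chance alone marks about 1 in 20 groups.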

How the results depend on the processing

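The direction of PRG2, EPX, SIGLEC8, RNASE2 and ALOX15 against LacZ was kept in each alternative run. Calls among the 9 genes in sg1, sg5 and both guides together (1, 2 and 2 above) moved as follows. The run without the 2 libraries apart on the first component left 1 library in each guide, so its calls are not counted here. DESeq2 gave 2, 2 and 3, with EPX added in sg1 and RNASE2 over both guides. Over all genes it called 98, 186 and 230, against 7, 18 and 31 in the main fit. No filter gave 4, 3 and 4, with RNASE2 added in each, EPX in sg1, and SIGLEC8 in sg1 and over both guides. Without a filter 345, 632 and 701 of 32983 genes were called. A fit of only the groups compared gave 2 in sg1 and 2 in sg5, beside 18 and 29 of all genes. The PRG2 locus as 1 gene gave 0, 1 and 1, beside 4, 16 and 15 of all genes. With limma on log2 TPM (pseudocount 0.1) the counts were 1, 1 and 1, beside 21, 25 and 13 of all genes. Leaving out 1 replicate gave 0 to 2 in sg1, 0 to 2 in sg5 and 1 to 2 over both guides; the lowest counts followed the loss of LacZ replicate 1 or LacZ replicate 2. A replicate block gave 0, 0 and 1 (PRG2), and a crossed block, added after the data were seen, 2, 2 and 2. Over all genes the replicate block called 1, 1 and 3, and the crossed block 17, 45 and 94. Context genes called (2, 2 and 2) became 4, 8 and 9 with DESeq2, 9, 12 and 13 without a filter, 15, 21 and 22 without the 2 libraries apart (1 in sg1 against sg5), 0, 0 and 1 with the replicate block, and 4 over both guides with the crossed block. In sg1 the mean filter of 50 counts, the length offset, the summed locus and limma each gave 1. Leaving out 1 replicate gave 0 to 2 context genes in sg1, 0 to 3 in sg5 and 0 to 7 over both guides.

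For the PRG2 locus, the log2 fold change in sg1, sg5 and both was -1.28, -1.45 and -1.36 with the read-through added, -0.24, -0.20 and -0.22 for PRG2 plus SLC43A3, and -0.30, -0.28 and -0.29 for all 3. Signs turned in small values. RNASE3 became -0.21 in sg1 and -0.19 over both guides without the 2 libraries apart, -0.024 over both with limma, and 0.010 (DESeq2), 0.0045 (RLE factors) and 0.0039 (replicate block) in sg5. In sg1 against sg5, PRG2 became -0.025 with the locus summed and -0.17 without the 2 libraries apart, RNASE2 -0.00072 with DESeq2, -0.0085 with the replicate block and -0.044 without the 2 libraries, and RNASE3 -0.048 without them. With 1 replicate left out RNASE3 ranged from -0.22 to 0.35 in sg1, -0.17 to 0.15 in sg5 and -0.11 to 0.18 over both guides, and in sg1 against sg5 PRG2 ranged from -0.15 to 0.21, RNASE2 from -0.31 to 0.26, RNASE3 from -0.22 to 0.34, SIGLEC8 from -1.08 to 0.046 and ALOX15 from -0.16 to 0.46. The cause was not tested. Groups of 2, and counts of at most 81 in SIGLEC8 and 44 in ALOX15, limit the precision.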
